A study of Homo sapiens with 30 samples.

Results

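A set of 10 genes was followed through every edited clone of a human cell line, without and with a splicing inhibitor: NSMAF, MDFIC, EFNB2, ZBTB40, FKBP3, ANKS6, ATXN7L3B, DSC2, GATA3 and PCDH17. They are 10 of the 61487 genes in the deposited table and were chosen because they had among the lowest p-values, in the libraries without inhibitor, of a mutant genotype against control or of 1 SUGP1 allele against the other. In a fit of all 30 libraries, each ranked between 1 (NSMAF, FKBP3 and DSC2) and 12 (ATXN7L3B) by p in a contrast of this kind. All 10 passed the filter on low counts. The cells were eHAP FNLS: eHAP is a haploid human line made from HAP1 cells, and FNLS is a base editor that turns C into T. Control cells had been transduced with a non-targeting guide RNA. The mutant cells carried PHF5A 2xTL (an insertion of 6 nucleotides), SF3B1 T1080I, SUGP1 E554K or SUGP1 G603N. Before harvest, cells had received DMSO, the solvent, or 2 nM pladienolide B (PB) for 3 h, and each of the 10 groups had 3 libraries. The 3 libraries of a mutant were 3 independent monoclonal lines, each grown with DMSO and with PB, whereas the 3 control libraries were replicates of 1 line. Spread among control libraries therefore measures cultures of a single line, and spread among mutant libraries measures clones.

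PB binds the SF3b complex of the U2 snRNP, the particle that recognises the branch site of introns. SF3B1 and PHF5A form the pocket in which the compound sits, and SUGP1, which has a G-patch domain, works beside SF3B1 in branch site choice. The 10 genes belong to no common pathway. EFNB2 is a membrane-bound ephrin ligand of Eph receptors, DSC2 a desmosomal cadherin, and PCDH17 a protocadherin. NSMAF (also called FAN) is an adaptor of the TNF receptor with a BEACH domain. Of the nuclear regulators, GATA3 is a zinc finger transcription factor, ZBTB40 belongs to the BTB zinc finger family, and MDFIC carries an I-mfa domain that binds transcriptional regulators. FKBP3 is a nuclear prolyl isomerase that binds FK506 and rapamycin, ANKS6 is an ankyrin repeat protein of the inversin compartment of cilia, and ATXN7L3B is a paralogue of ATXN7L3, the adaptor of the SAGA deubiquitinase.

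Total counts ran from 3.16e+07 to 7.50e+07 per library, 21940 to 28633 genes reached 10 counts, and the mitochondrial genome took 10.1 to 17.9% of counts. No library was identical to another. PTPRC and CD34, which mark blood cells, averaged 0.140 and 0.187 CPM (counts per 1000000 counts). The summed level of 14 blood cell markers was 5.89 to 26.2 CPM over the libraries, most of it from other genes of that list. The summed level of 9 neural markers was 749 to 1315 CPM and that of 9 mesenchymal markers 435 to 715 CPM. The summed level of 9 epithelial markers, 33.5 to 46.4 CPM in control, reached 163 CPM in a SUGP1 E554K line with PB. Levels of single genes below are CPM of libraries scaled by the trimmed mean of M-values (TMM). In bulk RNA, fewer cells that express a gene and less RNA per cell cannot be told apart.

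The DMSO libraries chose the genes, so their values are given as a description with no test (in a fit of the 15 DMSO libraries, 0.0% of 29091 genes were called in each of the 5 comparisons). Tests were made in the 15 PB libraries, which the choice did not use, with edgeR's quasi-likelihood test and Benjamini-Hochberg adjustment over all 28239 tested genes. These PB libraries come from the same lines as the DMSO libraries, so they repeat the measurement in another culture but add no further clones. The fit shares 1 estimate of spread between cultures of the control line and clones of the mutants. Every mutant genotype is compared with that single line, so a trait of the line and an effect of a mutation cannot be told apart. A difference between a mutant and control with PB also contains the response of control to PB, which is given below for each of the 10 genes. With PB, 4 of the 10 genes passed an adjusted p of 0.05 in PHF5A 2xTL against control, 3 of the 10 in SF3B1 T1080I, and none in SUGP1 E554K, in SUGP1 G603N or between the SUGP1 alleles. Over all tested genes the share called was 2.62% (741 genes) in PHF5A 2xTL, 4.24% (1197 genes) in SF3B1 T1080I, 0.0% in SUGP1 E554K, 0.00354% (1 gene) in SUGP1 G603N and 0.0% between the alleles. At an unadjusted p under 0.05, 1665 genes passed in SUGP1 E554K, 1839 in SUGP1 G603N and 1378 between the alleles. DESeq2 called 7, 36 and 4 genes in these 3 comparisons.

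**Figure D1:**
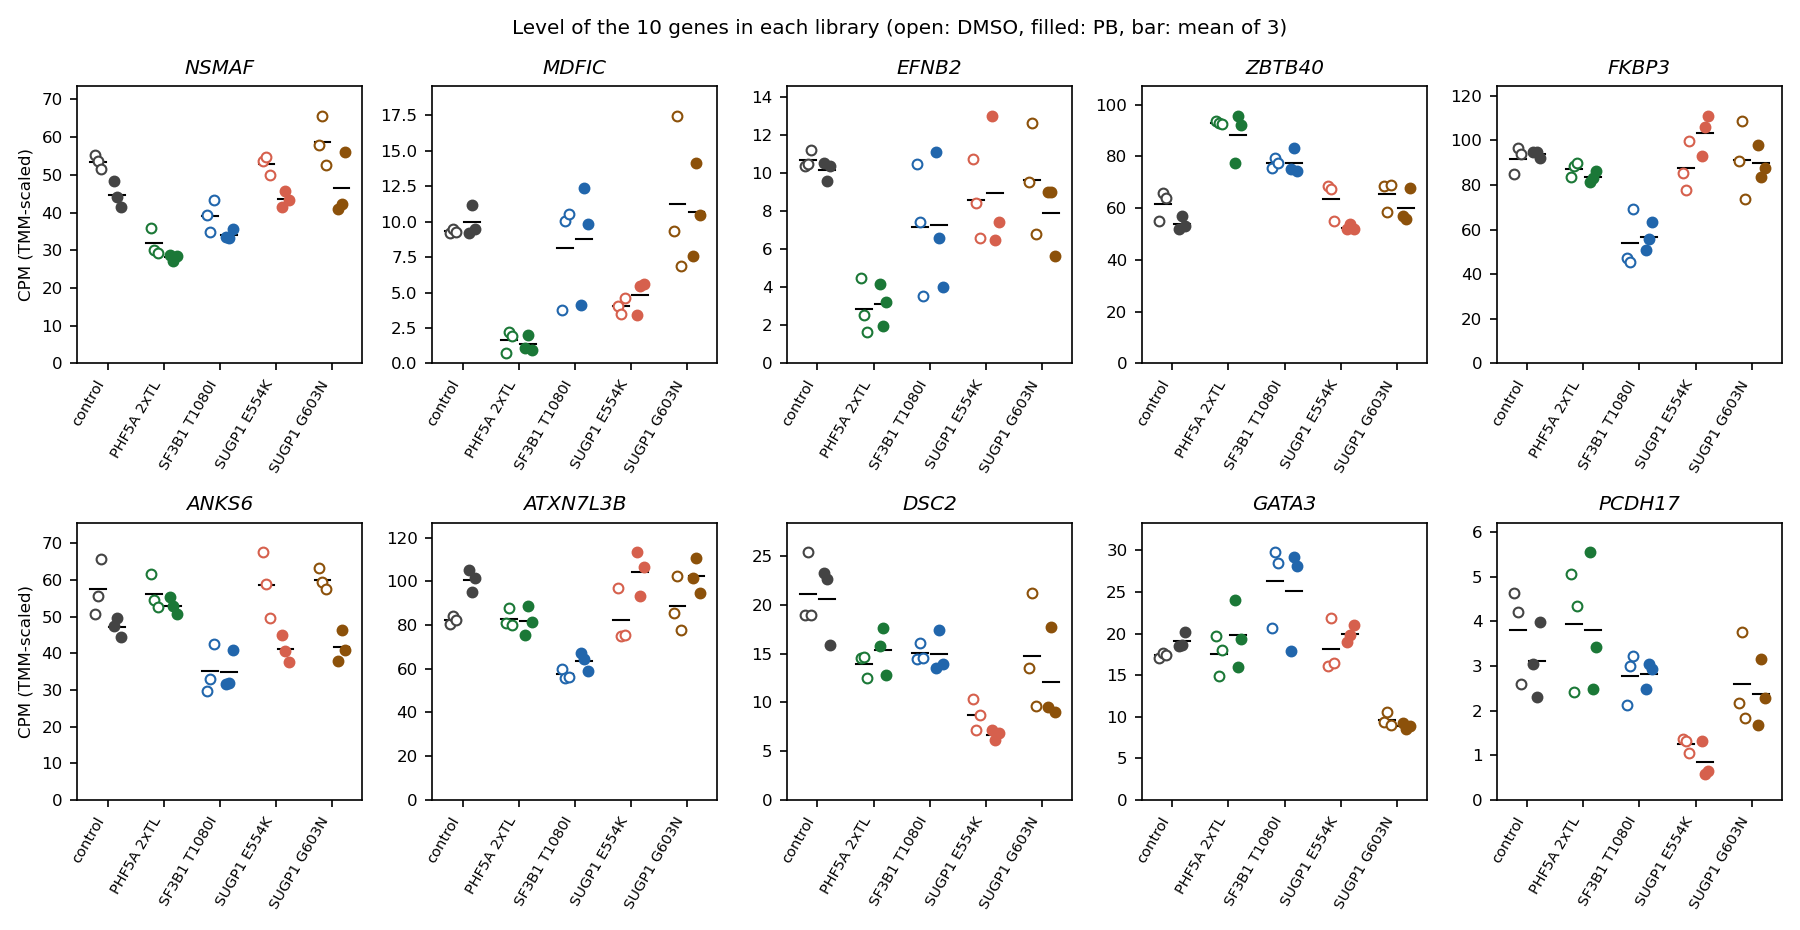
Level of each of the 10 genes in every library (CPM, TMM-scaled, linear axis from 0) by genotype, with open points for DMSO, filled points for PB and a bar at the mean of 3. MDFIC and EFNB2 are low in all PHF5A 2xTL libraries, FKBP3 and ATXN7L3B in all SF3B1 T1080I libraries, GATA3 in all SUGP1 G603N libraries, and DSC2 and PCDH17 in the SUGP1 E554K libraries. Means of DSC2 are below control in every mutant genotype.

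MDFIC and EFNB2 fell furthest in the PHF5A 2xTL lines, and the stretches before their start sites are shown because both genes were low in the same 3 lines. Of the 10 genes, 7 matched an entry in the RefSeq promoter table (GRCh38.p14). The 250 bases before a start are written 5′ to 3′ on the gene's strand, in lower case. Capitals mark matches, on either strand, to 4 motifs: the CCAAT box (written CCAAT), the TATA box (searched as TATAAA), the GC box (searched as GGGCGG) and an ETS motif (searched as CCGGAAGT). RefSeq gives MDFIC a pair of start sites, and the window of the downstream one is shown; EFNB2 has 1. The windows are chr7:114921904-114922153 (plus strand) for MDFIC and chr13:106535663-106535912 (minus strand) for EFNB2.
MDFIC: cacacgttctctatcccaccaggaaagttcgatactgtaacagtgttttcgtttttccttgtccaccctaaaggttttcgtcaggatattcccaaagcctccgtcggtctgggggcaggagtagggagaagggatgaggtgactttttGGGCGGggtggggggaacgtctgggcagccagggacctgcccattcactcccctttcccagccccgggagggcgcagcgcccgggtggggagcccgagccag
EFNB2: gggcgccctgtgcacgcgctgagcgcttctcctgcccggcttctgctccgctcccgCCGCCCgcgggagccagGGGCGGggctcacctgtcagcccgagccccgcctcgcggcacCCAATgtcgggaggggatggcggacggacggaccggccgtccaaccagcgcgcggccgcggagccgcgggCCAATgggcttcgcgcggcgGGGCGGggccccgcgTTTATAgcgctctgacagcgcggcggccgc
The MDFIC window held 13 CpG dinucleotides at 60.0% GC, with 1 GC box and no match to the other motifs. The window of its upstream start, which overlaps this one, held 11 at 52.8% GC and the same GC box. The EFNB2 window held 40 CpG dinucleotides at 78.4% GC, with 2 CCAAT boxes, 1 TATA box letter match (on the opposite strand) and 3 GC boxes. Over 34943 windows of the same length, 32.0% held the CCAAT box, 10.8% the TATA box, 42.5% the GC box and 3.39% the ETS motif, and the median number of CpG dinucleotides was 11. These matches describe letters and say nothing of binding.

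In the PHF5A 2xTL lines with PB, MDFIC, EFNB2 and NSMAF were lower than in control and ZBTB40 was higher. MDFIC (ENSG00000135272, chromosome 7, 114922154 to 115019202, hg38) was 7.24-fold lower, EFNB2 3.25-fold lower and NSMAF 1.59-fold lower, while ZBTB40 was 1.64-fold higher. Among all tested genes 0.779% were called lower and 1.84% higher in this comparison.

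MDFIC with PB stood at 1.10, 2.03 and 0.968 CPM in PHF5A 2xTL lines 1, 2 and 3, against 9.18, 11.2 and 9.48 CPM in control. The groups were far apart, with the highest mutant line below the lowest control library. The log2 fold change was -2.86 ± 0.39 (SE, edgeR adjusted p = 0.00098), and the gene was called under all 13 alternatives. Among the 13, the fit of all 30 libraries includes the DMSO libraries that chose the genes. Its call is no separate support for MDFIC or for any gene below. Without drug the same lines had 0.760, 2.20 and 1.92 CPM, and control 9.20, 9.49 and 9.28 CPM. Both treatments thus gave low values in each of the 3 clones, and MDFIC in control moved by 0.09 ± 0.13 (SD, n = 3) on the log2 scale from DMSO to PB.

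Other genotypes also held lines with little MDFIC. The 3 SUGP1 E554K lines had 4.03, 3.51 and 4.62 CPM with DMSO and 3.42, 5.43 and 5.64 CPM with PB. All 6 of these libraries lay below all control libraries, but the PB difference was not called (log2 fold change -1.06 ± 0.36, edgeR adjusted p = 0.79). SF3B1 T1080I line 1 had 3.76 CPM with DMSO and 4.11 with PB, while its sister lines 2 and 3 had 10.1 and 10.6 CPM with DMSO and 12.3 and 9.80 with PB. SUGP1 G603N line 2 was the highest of all, with 17.5 and 14.1 CPM in the 2 treatments, against 9.31 and 7.55 in line 1 and 6.86 and 10.5 in line 3. Clones of 1 genotype therefore differed in MDFIC by more than the control cultures did.

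EFNB2 (ENSG00000125266, chromosome 13, 106489731 to 106535662, minus strand) stood at 4.19, 1.98 and 3.22 CPM in the PHF5A 2xTL lines with PB and at 10.5, 9.55 and 10.4 CPM in control. These groups did not overlap (log2 fold change -1.70 ± 0.36, edgeR adjusted p = 0.019). Leaving out PHF5A 2xTL line 2 or 3, or any 1 of the control PB libraries, ended the call, with an adjusted p of up to 0.11. With DMSO the lines had 4.47, 2.55 and 1.63 CPM, again all below the control values of 10.4, 10.5 and 11.2 CPM. Control moved by -0.07 ± 0.08 from DMSO to PB.

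As for MDFIC, single clones of other genotypes were low in EFNB2. The SF3B1 T1080I lines 1, 2 and 3 had 10.5, 7.43 and 3.52 CPM with DMSO and stood at 11.1, 6.58 and 4.03 CPM with PB. The order of the 3 clones was the same in both treatments, and line 3 lay within the range of the PHF5A 2xTL lines. SUGP1 E554K had 10.8, 8.44 and 6.60 CPM with DMSO and 13.0, 6.49 and 7.41 with PB, and SUGP1 G603N 9.52, 12.6 and 6.79 CPM and 8.98, 8.97 and 5.66 CPM. None of these 3 genotypes passed the test with PB. An antisense gene (0.447 CPM) overlaps EFNB2, and whether the counting used strand is not known.

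NSMAF (ENSG00000035681, chromosome 8, 58583504 to 58659844, minus strand) stood at 28.9, 27.2 and 28.5 CPM in the PHF5A 2xTL lines with PB, against 48.3, 44.1 and 41.6 CPM in control. The log2 fold change was -0.67 ± 0.12 (edgeR adjusted p = 0.0076), and the call was lost without PHF5A 2xTL line 2 or without control PB library 1 (adjusted p up to 0.059). With DMSO the values were 35.9, 30.2 and 29.3 CPM against 55.4, 53.6 and 51.5 CPM. Control itself had 0.26 ± 0.06 less NSMAF on the log2 scale with PB than with DMSO, and PHF5A 2xTL 0.17 ± 0.14 less.
The SF3B1 T1080I lines took a middle place, with 39.3, 34.9 and 43.3 CPM with DMSO and 33.5, 33.4 and 35.6 CPM with PB. They lay below control in each treatment, but with PB the difference did not pass (log2 fold change -0.39 ± 0.12, edgeR adjusted p = 0.082, range over the alternatives 0.027 to 0.28). Both SUGP1 genotypes lay near control, between 50.0 and 65.7 CPM with DMSO and 41.0 to 56.0 CPM with PB. A processed pseudogene on the same strand (5.38 CPM) overlaps NSMAF, so a share of its estimated counts is uncertain. The size of that share was not measured.

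ZBTB40 (ENSG00000184677, chromosome 1, 22428838 to 22531157) was the 1 gene of the 10 that passed in both SF3b genotypes. With PB it reached 77.4, 95.7 and 92.2 CPM in the PHF5A 2xTL lines and 75.2, 83.3 and 74.2 CPM in the SF3B1 T1080I lines, against 52.0, 56.8 and 52.9 CPM in control. Every mutant line lay above every control library in both comparisons. The log2 fold change was 0.71 ± 0.11 in PHF5A 2xTL (edgeR adjusted p = 0.0024, called under all 13 alternatives) and 0.52 ± 0.11 in SF3B1 T1080I (edgeR adjusted p = 0.013). The second call was lost without SF3B1 T1080I line 2 or without control PB library 1 or 3 (adjusted p up to 0.083). The 2 comparisons share their control libraries.
With DMSO the PHF5A 2xTL lines were close together at 93.8, 92.9 and 92.4 CPM, the SF3B1 T1080I lines had 75.4, 79.2 and 77.3 CPM, and control 55.0, 65.8 and 63.9 CPM. Control had 0.19 ± 0.10 less ZBTB40 on the log2 scale with PB, whereas the difference was -0.08 ± 0.17 in PHF5A 2xTL and 0.00 ± 0.07 in SF3B1 T1080I. With DMSO the fold change in SF3B1 T1080I was 0.32 ± 0.11. The SUGP1 lines had 54.9 to 69.1 CPM with DMSO and 51.8 to 67.7 CPM with PB, overlapping control in each treatment.

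**Figure D2:**
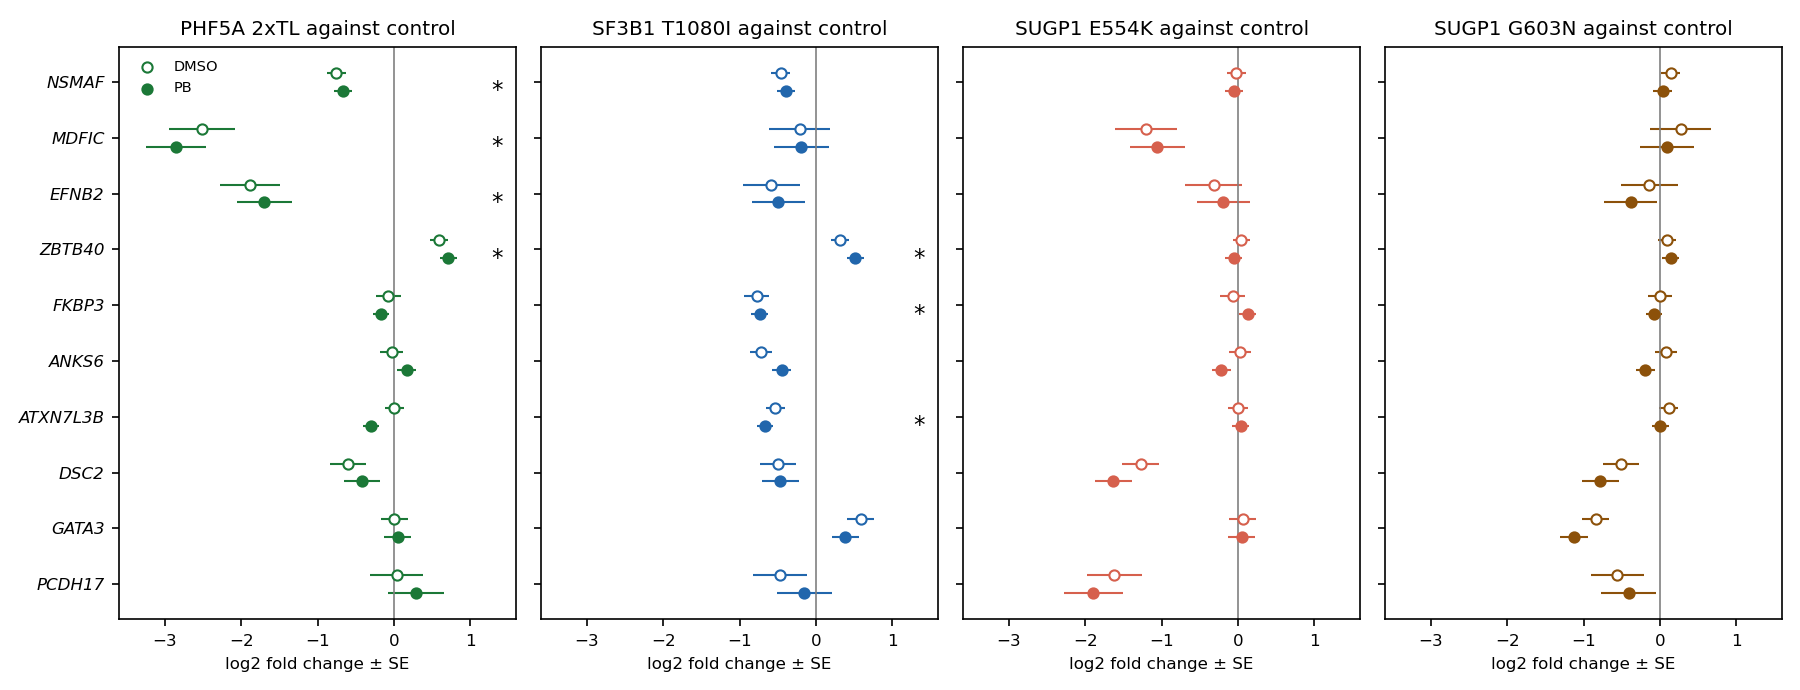
Fitted log2 fold change ± SE of each gene in each mutant genotype against control, with open points for DMSO (a description, since these libraries chose the genes) and filled points for PB. A star marks an edgeR adjusted p under 0.05 with PB: 4 genes in PHF5A 2xTL, 3 in SF3B1 T1080I and none in the SUGP1 genotypes.

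In the SF3B1 T1080I lines with PB, FKBP3 and ATXN7L3B were lower than in control, by 1.67-fold and 1.59-fold, and ZBTB40 was higher as given above. ANKS6, the other gene chosen on this genotype, did not pass. Among all tested genes 0.875% were called lower and 3.36% higher.

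FKBP3 (ENSG00000100442, chromosome 14, 45115600 to 45135319, minus strand) had 50.7, 55.7 and 63.5 CPM in the SF3B1 T1080I lines with PB and 94.7, 94.7 and 92.3 CPM in control. The gap was wider than either spread (log2 fold change -0.74 ± 0.11, edgeR adjusted p = 0.0014, called under all 13 alternatives). With DMSO the lines had 47.3, 45.5 and 69.5 CPM against 84.9, 96.5 and 93.9 CPM, so line 3 was the highest of the clones in both treatments. Control moved by 0.04 ± 0.11 with PB. In the PHF5A 2xTL lines FKBP3 stood at 81.4 to 90.0 CPM over both treatments, in SUGP1 E554K at 77.6 to 111 CPM and in SUGP1 G603N at 73.7 to 109 CPM, and none of these passed with PB. FKBP3 overlaps PRPF39 on the opposite strand (67.6 CPM), and without a known strand setting reads of the 2 genes cannot be told apart where they overlap. PRPF39, a splicing factor, was at -0.19, -0.12 and -0.08 in SF3B1 T1080I lines 1, 2 and 3 (log2 CPM against the control mean, both treatments averaged), where FKBP3 was at -0.92, -0.88 and -0.48.

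ATXN7L3B (ENSG00000253719, chromosome 12, 74537827 to 74545430) had 67.3, 64.5 and 59.0 CPM in the SF3B1 T1080I lines with PB and 105, 95.1 and 102 CPM in control. No mutant line came near the control range (log2 fold change -0.67 ± 0.11, edgeR adjusted p = 0.0027, called under all 13 alternatives). With DMSO the lines had 60.1, 55.9 and 56.1 CPM and control 80.5, 83.9 and 82.3 CPM. The fold change there was -0.53 ± 0.13. ATXN7L3B in control was 0.29 ± 0.10 higher with PB than with DMSO, and in SF3B1 T1080I 0.15 ± 0.07 higher. The PHF5A 2xTL lines lay at the control level with DMSO (80.7, 87.7 and 80.0 CPM) and below it with PB (75.3, 88.5 and 81.3 CPM), with a difference between treatments of -0.02 ± 0.07. That PB difference did not pass (-0.30 ± 0.11, edgeR adjusted p = 0.18). The paralogue ATXN7L3, which may share reads, had a log2 fold change of 0.15 ± 0.11 in SF3B1 T1080I with PB (edgeR adjusted p = 0.52).

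ANKS6 (ENSG00000165138, chromosome 9, 98731329 to 98796965, minus strand) had 29.8, 33.0 and 42.6 CPM in the SF3B1 T1080I lines with DMSO, against 50.7, 55.7 and 65.7 CPM in control. With PB the lines had 31.6, 32.0 and 40.8 CPM and control 47.4, 49.7 and 44.5 CPM. The groups did not overlap in either treatment, yet the PB difference just missed the threshold (log2 fold change -0.45 ± 0.12, edgeR adjusted p = 0.052). Of 13 alternatives 3 called it, with an adjusted p from 0.012 to 0.23 over all of them. The fold change was -0.72 ± 0.15 with DMSO, and ANKS6 in control was 0.28 ± 0.25 lower on the log2 scale with PB than with DMSO. SUGP1 E554K (67.5, 58.8 and 49.6 CPM to 44.8, 40.6 and 37.7) and SUGP1 G603N (63.3, 59.4 and 57.4 CPM to 37.9, 46.4 and 40.9) had less ANKS6 with PB in every line, with differences of -0.51 ± 0.10 and -0.53 ± 0.19. In SF3B1 T1080I the difference was -0.01 ± 0.08 and in PHF5A 2xTL -0.08 ± 0.06.

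DSC2 and PCDH17, both cell adhesion cadherins, had their lowest group means in the SUGP1 E554K lines, and GATA3 in the SUGP1 G603N lines. None of these 3 genes passed the test with PB, although their values kept apart from control there.

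DSC2 (ENSG00000134755, chromosome 18, 31058840 to 31102522, minus strand) had 10.3, 7.19 and 8.66 CPM in the SUGP1 E554K lines with DMSO and 7.19, 6.10 and 6.81 CPM with PB. Control had 18.9, 25.4 and 18.9 CPM and 23.2, 22.6 and 15.9 CPM, a move of -0.04 ± 0.29 on the log2 scale from DMSO to PB. The highest E554K library was below the lowest control library, and with PB the log2 fold change was -1.63 ± 0.25 (edgeR adjusted p = 0.13). All 30 libraries in 1 fit, DESeq2, no low-count filter and a fit of the 2 groups alone called it, whereas the other 9 alternatives did not (adjusted p from 4.9e-08 to 1.0 over the 13). The 30-library fit includes the DMSO libraries that chose the gene, so its call is no separate support. The SF3b genotypes had 12.5 to 17.6 CPM (PHF5A 2xTL) and 13.5 to 17.4 CPM (SF3B1 T1080I) over both treatments. With DMSO both lay below every control library (log2 fold change -0.60 ± 0.24 and -0.50 ± 0.24), and with PB both overlapped control. The mean of SUGP1 G603N was also below control, at -0.51 ± 0.24 with DMSO and -0.78 ± 0.24 with PB. Lower DSC2 than in the single control line was thus shared by every mutant genotype, and E554K was lowest. Within SUGP1 G603N, line 2 had 21.2 and 17.7 CPM in the 2 treatments, inside the control range, and lines 1 and 3 had 13.5 and 9.54 CPM and 9.60 and 9.05 CPM. In 2 of the E554K PB libraries the mitochondrial share was 14.3 and 17.9%, against 11.3 to 12.8% in control, and the summed level of the 9 epithelial markers was 42.5 to 163 CPM in E554K against 41.4 to 46.4 CPM. The part of either in DSC2 was not tested. E554K line 1, with a share of 10.1%, had 7.19 CPM of DSC2.

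PCDH17 (ENSG00000118946, chromosome 13, 57631810 to 57729311) had 19 to 266 estimated counts per library, and its 19 was the lowest count of any of the 10 genes. The SUGP1 E554K lines had 1.37, 1.31 and 1.06 CPM with DMSO and 1.32, 0.572 and 0.637 CPM with PB. Control had 4.62, 4.20 and 2.60 CPM and 3.04, 2.31 and 3.99 CPM, so the groups did not overlap in either treatment. From DMSO to PB the control cultures moved by -0.28 ± 0.78 on the log2 scale, with single cultures from -0.85 to 0.61. With PB the log2 fold change was -1.89 ± 0.38 (edgeR adjusted p = 0.77, range 0.0013 to 1.0 over the alternatives, of which DESeq2 and no low-count filter called it). The lines with the least PCDH17 with PB, 2 and 3, had mitochondrial shares of 14.3 and 17.9%, and line 1 had 10.1%. With DMSO, line 3 had both the highest share and the least PCDH17 of the 3 lines. The part of this share in PCDH17 was not tested. PHF5A 2xTL had 2.42 to 5.54 CPM and SF3B1 T1080I 2.13 to 3.23 CPM over both treatments. As for DSC2, SUGP1 G603N line 2 (3.76 and 3.15 CPM) stood above lines 1 (2.18 and 1.68 CPM) and 3 (1.82 and 2.29 CPM).

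GATA3 (ENSG00000107485, chromosome 10, 8045378 to 8075203) separated the SUGP1 alleles. The SUGP1 G603N lines had 9.41, 10.5 and 8.95 CPM with DMSO and 9.23, 8.52 and 8.88 CPM with PB. The E554K lines had 16.1, 21.9 and 16.5 CPM and 19.0, 19.9 and 21.0 CPM, and control 17.1, 17.6 and 17.4 CPM and 18.5, 18.6 and 20.2 CPM. Every G603N library was lower than every other library of the series, and the G603N clones were close to each other (8.88 ± 0.35 CPM with PB, SD, n = 3). From DMSO to PB, GATA3 in control moved by 0.13 ± 0.07 on the log2 scale. With PB the log2 fold change of E554K against G603N was 1.17 ± 0.18 (edgeR adjusted p = 0.19) and that of G603N against control -1.12 ± 0.18 (edgeR adjusted p = 0.12). All 30 libraries in 1 fit, DESeq2 and no low-count filter called both, and the other 10 alternatives called neither. The 30-library fit includes the DMSO libraries that chose the gene, so its call is no separate support. The adjusted p over the alternatives ran from 2.1e-05 to 1.0 between the alleles and from 8.2e-05 to 0.74 against control. In SF3B1 T1080I, lines 2 and 3 were high (29.8 and 28.5 CPM with DMSO, 29.2 and 28.1 with PB) and line 1 was not (20.7 and 17.9 CPM).

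**Figure D3:**
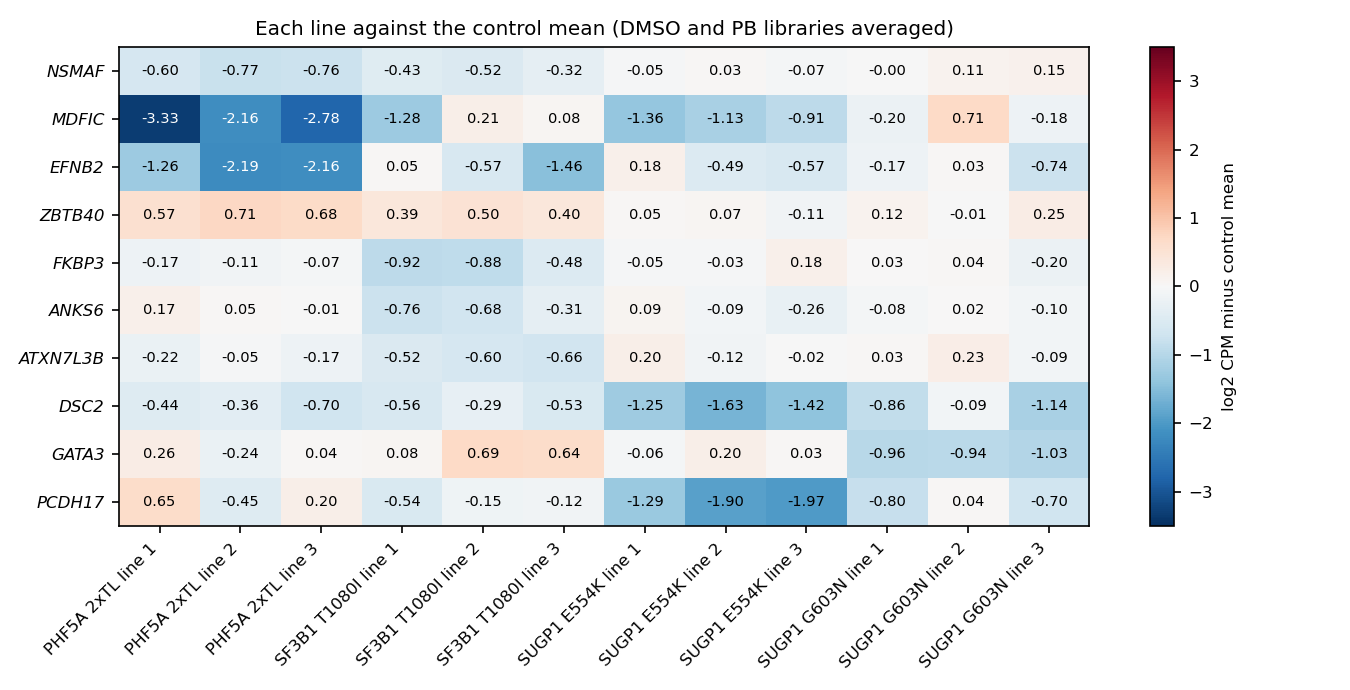
Log2 CPM of each line minus the control mean (rows are genes, columns are the 12 mutant lines, DMSO and PB libraries averaged), with blue for lower and red for higher than control. MDFIC ranges from -3.33 in PHF5A 2xTL line 1 to 0.71 in SUGP1 G603N line 2, and lines of 1 genotype differ for MDFIC in SF3B1 T1080I, EFNB2 in SF3B1 T1080I and DSC2 in SUGP1 G603N.

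Per kilobase of gene length, FKBP3 was the most abundant of the 10 genes in every group, at 23.9 to 45.8 CPM per kilobase. ATXN7L3B, at 7.55 to 13.7 over the 10 groups, came next except in SF3B1 T1080I. In that genotype ZBTB40 stood higher, at 8.43 with DMSO and 8.46 with PB, against 7.55 and 8.37 for ATXN7L3B. GATA3 also stood higher than ATXN7L3B in SF3B1 T1080I with DMSO, at 7.76. ZBTB40, NSMAF and ANKS6 lay at 3.93 to 10.1. PCDH17, at 0.100 to 0.470, was the least abundant except in PHF5A 2xTL. There MDFIC was lower, at 0.270 with DMSO and 0.227 with PB, against 0.470 and 0.454 for PCDH17. When the 10 groups of a gene were ranked by mean CPM, most neighbouring groups were closer than their spread: of 90 steps between neighbours, 19 were wider than both SDs, with 1 to 3 such steps per gene. For MDFIC, GATA3 and PCDH17 the single wide step set PHF5A 2xTL, SUGP1 G603N and SUGP1 E554K below all other groups. For EFNB2 a wide step lay above PHF5A 2xTL and another between the control treatments. FKBP3 had wide steps above SF3B1 T1080I, above PHF5A 2xTL with PB and above control with PB, and ATXN7L3B above SF3B1 T1080I and between its 2 treatments. For NSMAF the wide steps lay above each SF3B1 T1080I group and above PHF5A 2xTL with PB. For ZBTB40 they lay between PHF5A 2xTL and SF3B1 T1080I and below SF3B1 T1080I. For DSC2 they lay below control and above SUGP1 E554K with PB, and for ANKS6 above control with PB and above SUGP1 G603N with PB.

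With PB for 3 h, most of the 10 genes stayed near their DMSO level. The differences below are of the PB and the DMSO library of the same line or number, on the log2 CPM scale, and carry no test because the DMSO libraries were used in the choice. Over 31444 genes the median difference ran from -0.01 in SF3B1 T1080I to 0.04 in SUGP1 G603N, with 90% of genes between -1.02 and 1.23 in control. NSMAF was lower with PB in all 3 lines or cultures of 4 genotypes and in 2 of 3 G603N lines. ATXN7L3B was higher in every line of control, both SUGP1 genotypes and SF3B1 T1080I, by 0.15 ± 0.07 to 0.35 ± 0.14. ZBTB40 was lower in every line of control and of both SUGP1 genotypes. MDFIC had lines going either way in all 5 genotypes. In PHF5A 2xTL its 3 lines spread by 0.74 (SD) around -0.19, at levels of about 1 to 2 CPM.

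**Figure D4:**
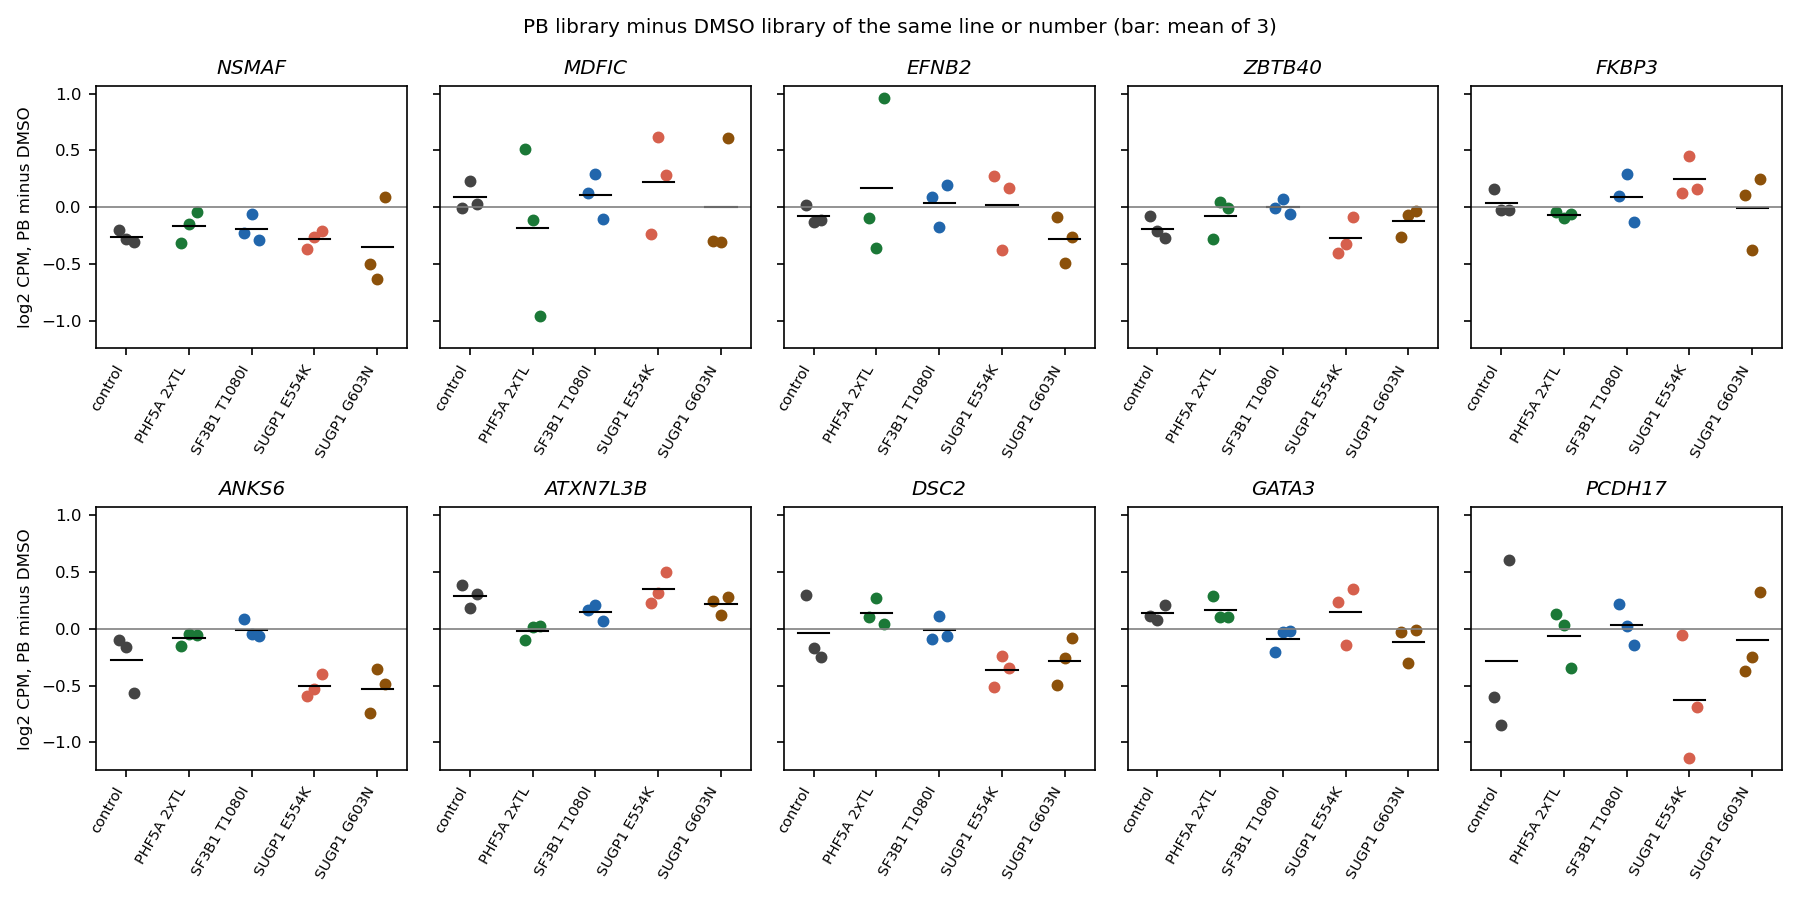
Log2 CPM of the PB library minus the DMSO library of the same line or number, for each gene and genotype, with a bar at the mean of 3. For ANKS6 the means are -0.51 and -0.53 in the SUGP1 genotypes and -0.01 and -0.08 in SF3B1 T1080I and PHF5A 2xTL, and for ATXN7L3B they are above 0 in all genotypes but PHF5A 2xTL.

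Because clones can differ in stretches of a chromosome, the 20 nearest tested protein-coding genes of each of the 10 (10 on each side) were read in every line. They are nearest by order, and some lie far off or are hardly expressed. MET and KCND2 lie 1653 and 5254 kb from MDFIC, and PCDH9 8574 kb from PCDH17. The first gene before EFNB2, SLC10A2 (0.148 CPM), lies 3423 kb away. Over the 120 pairs of a gene and a line the median of the neighbours was -0.39 to 0.30 on the log2 scale against the control mean, while the genes themselves ran down to -3.33. In 18 pairs the gene was at least 1 away from control. In 11 of these no neighbour was as far in the same direction, in 5 pairs 1 neighbour was, and in 2 pairs (MDFIC in SUGP1 E554K lines 1 and 2) more than 1 was. The 10 genes were chosen as extremes in DMSO libraries that enter these averages, and the neighbours were not. That a gene lay further from control than its neighbours was thus largely fixed by the choice. Whether a stretch of chromosome differed was not tested. Next to EFNB2, ARGLU1 (184.6 CPM) was at -0.35, -0.25 and -0.11 in PHF5A 2xTL lines 1, 2 and 3, where EFNB2 was at -1.26, -2.19 and -2.16. SDCBP, 1 kb from NSMAF, was at -0.03, -0.04 and -0.23 in the same lines, and TAF3 beside GATA3 at -0.05, 0.19 and 0.14 in the SUGP1 G603N lines.

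Some neighbours moved as well. TOX, the nearest gene on the other side of NSMAF (13.8 CPM), was at -0.62, -1.90 and -2.44 in the PHF5A 2xTL lines and -1.36, -1.56 and -0.60 in the SF3B1 T1080I lines. It was also at -1.01 and -0.96 in SUGP1 E554K lines 1 and 3 and at -0.88 in SUGP1 G603N line 3, where NSMAF was at -0.05, -0.07 and 0.15. Around MDFIC, the receptor tyrosine kinase gene MET (33.8 CPM) was at -1.66, -1.39 and -1.97 in the SUGP1 E554K lines and at -1.74 in SF3B1 T1080I line 1. It was also at -1.48, -0.45 and -2.56 in the SUGP1 G603N lines and at -0.87 in SF3B1 T1080I line 2, where MDFIC was at -0.20, 0.71, -0.18 and 0.21. MET was at 0.42, 0.36 and 0.02 in the PHF5A 2xTL lines, where MDFIC was lowest. Low MET thus went with low MDFIC in the SUGP1 E554K lines (MDFIC at -1.36, -1.13 and -0.91) and SF3B1 T1080I line 1 (-1.28). The 2 did not go together in the PHF5A 2xTL lines, SUGP1 G603N lines 1 and 3 or SF3B1 T1080I line 2. A shared cause was not tested. TES (3.66 CPM) was at -2.39 and -1.42 in PHF5A 2xTL lines 1 and 3 but at -0.16 in line 2, and it was low in SUGP1 E554K lines 1 and 2 (-2.17 and -3.45) and SF3B1 T1080I line 3 (-1.77). KCND2 (1.48 CPM) was further from control than MDFIC in PHF5A 2xTL lines 2 and 3 (-3.12 and -3.61, against -2.16 and -2.78). It was at 0.01 in PHF5A 2xTL line 1 and at -2.38 in SF3B1 T1080I line 3, with MDFIC at -3.33 and 0.08. The desmosomal DSG2, beside DSC2, was at -1.36 in SUGP1 E554K line 3, at 0.10 and -0.39 in lines 1 and 2, and at -0.70 in SUGP1 G603N line 3. On the same side of DSC2, RNF125 (6.11 CPM) was at -1.71 in SUGP1 G603N line 3, where DSC2 was at -1.14. In the SUGP1 E554K lines RNF125 was at 0.18, -0.20 and -0.83. On the PCDH17 side, PCDH9 was at -0.88, -0.74 and -1.33 in the SUGP1 E554K lines, at -0.74, -0.50 and -1.59 in the SUGP1 G603N lines and at -1.34 in SF3B1 T1080I line 1. NEK3 (2.30 CPM) was at -2.05 in SUGP1 E554K line 1, where PCDH17 was at -1.29, and at -0.53 and 0.32 in lines 2 and 3.

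**Figure D5:**
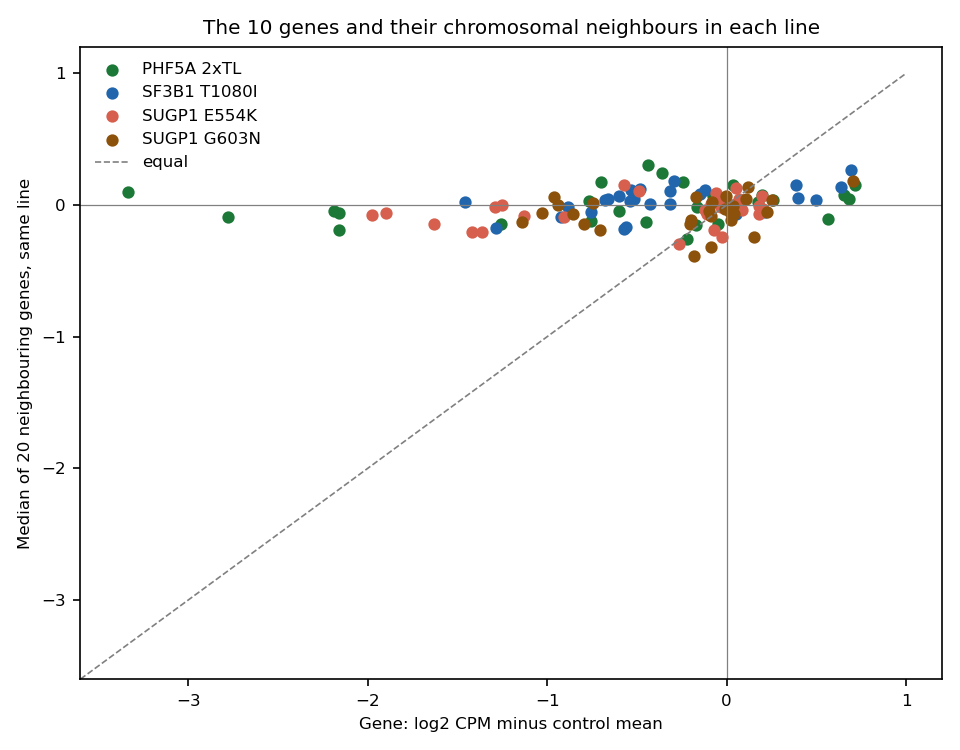
Each point is 1 of the 10 genes in 1 of the 12 mutant lines: its log2 CPM minus the control mean (x) against the median of its 20 nearest tested protein-coding genes in the same line (y), with a dashed line of equal values. The medians stay between -0.39 and 0.30 while the genes reach -3.33, which the choice of the genes on DMSO libraries largely fixes.

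Relatives and partners of the 10 genes were read in the same PB comparisons, from lists chosen with earlier results of these data known. Of 21 ephrins and Eph receptors, 1 rose in SF3B1 T1080I and none fell in any comparison. That gene was EPHA4, a receptor for both ephrin classes (log2 fold change 0.68 ± 0.17, edgeR adjusted p = 0.027). EFNB1, another B-class ephrin, had -0.22 ± 0.17 in PHF5A 2xTL (edgeR adjusted p = 0.65). The median of the 21 was 0.31 in PHF5A 2xTL and 0.26 in SF3B1 T1080I, against -0.02 and -0.04 over all tested genes.
Of 15 desmosomal and cadherin genes 10 were tested, and none passed in any comparison. In SUGP1 E554K their median was -0.20, against 0.00 over all genes. The most abundant, CTNNB1 (beta-catenin), had -0.16 ± 0.11, the plaque protein DSP had -0.10 ± 0.22 and DSG2 -0.40 ± 0.27 there. Of 9 delta protocadherins 7 were tested, and PCDH18 fell in PHF5A 2xTL (-0.90 ± 0.23, edgeR adjusted p = 0.048). PCDH9 had -1.14 ± 0.30 in SUGP1 E554K without passing (edgeR adjusted p = 0.77), and -0.97 ± 0.30 in SUGP1 G603N (edgeR adjusted p = 0.64).

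Of 14 GATA factors and partners 13 were tested. LMO4, a LIM-only cofactor, rose in PHF5A 2xTL (0.84 ± 0.21, edgeR adjusted p = 0.041) and ZFPM1, a GATA cofactor, in SF3B1 T1080I (1.23 ± 0.32, edgeR adjusted p = 0.041), and none passed in the SUGP1 comparisons. GATA2 had 0.35 ± 0.16 in SUGP1 G603N, where GATA3 was low. All 16 genes of the TNF receptor and BEACH list were tested, of which NBEAL1 (0.75 ± 0.15, edgeR adjusted p = 0.0093) and LYST (0.95 ± 0.23, edgeR adjusted p = 0.025), both BEACH proteins, rose in SF3B1 T1080I. None fell alongside NSMAF in PHF5A 2xTL. Of 12 genes around MDFIC 11 were tested, and MEPCE (a 7SK RNA capping enzyme) and AXIN1 (a scaffold of the beta-catenin destruction complex) rose in both SF3b genotypes, by 0.41 to 0.55 on the log2 scale. In PHF5A 2xTL the medians of these 3 lists were 0.03, 0.17 and 0.00, and in SF3B1 T1080I -0.05, 0.11 and 0.06, against -0.02 and -0.04 over all tested genes.

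Among 15 FK506-binding proteins and relatives, FKBP15 rose in PHF5A 2xTL (0.61 ± 0.13, edgeR adjusted p = 0.017) and in SF3B1 T1080I (0.78 ± 0.13, edgeR adjusted p = 0.0027), opposite to FKBP3, and none fell. Of 12 genes of the inversin compartment and the ANKS family, HIF1AN, the hydroxylase that modifies ankyrin repeats, rose in both SF3b genotypes (0.59 and 0.57), and IQCB1, a ciliary transition zone protein, rose in SF3B1 T1080I (0.45 ± 0.12, edgeR adjusted p = 0.045). Of 14 SAGA genes ATXN7L1 rose in SF3B1 T1080I (1.08 ± 0.23, edgeR adjusted p = 0.012), and of 23 ZBTB factors none passed. ZBTB33, the most abundant of these, had -0.26 ± 0.10 in PHF5A 2xTL and 0.03 ± 0.10 in SF3B1 T1080I. Medians of these 4 lists ran from -0.07 to 0.24 in the SF3b genotypes. Over all lists read, every called gene but PCDH18 was higher in the mutant. Most calls over all tested genes were also higher, 521 of 741 in PHF5A 2xTL and 950 of 1197 in SF3B1 T1080I.

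Across the 15 lines and control cultures (DMSO and PB averaged), correlations of 9 of the 10 genes are given in 3 sets. A set holds genes whose lowest p among the DMSO comparisons was in the same genotype. GATA3, whose lowest such p was between the SUGP1 alleles, had r from -0.66 (with ATXN7L3B) to 0.29 (with ZBTB40). NSMAF correlated with EFNB2 at r = 0.76, with MDFIC at 0.69 and with ZBTB40 at -0.91. In the same set MDFIC had 0.60 with EFNB2 and -0.61 with ZBTB40, both weaker than GATA3 with ATXN7L3B, so the sets are not sharply apart. FKBP3 correlated with ATXN7L3B at 0.84 and with ANKS6 at 0.83, and DSC2 with PCDH17 at 0.83. These correlations describe 15 points of which 3 per genotype share a mutation, and the choice of genes fixes much of them. Among genes averaging 4 CPM or more, the pattern most like MDFIC was that of UBE2R2 (r = 0.88), a ubiquitin-conjugating enzyme, followed by MFSD3 and FRAS1. EFNB2 was closest to TCEAL1 (0.90), PATL1 and HPGD, NSMAF to YIPF1 (0.92), TMEM18 and UHRF2, and ZBTB40 to CDCA8 (0.96), PRDM10 and RFWD3. For FKBP3 the closest were SMIM10L1 (0.94), NCBP2AS2 and RPS23, for ANKS6 SESN1 (0.90), VGLL4 and CLPTM1L, and for ATXN7L3B TRMT12 (0.92), TRAPPC9 and PRPF3. DSC2 was closest to ATP8A1 (0.88), CDKAL1 and SEL1L3, GATA3 to NTAQ1 (0.88), DERA and DPH5, and PCDH17 to WDR17 (0.89), ENSG00000286891 and UBQLN4P1. These lists shift with the libraries used. Of the 30 genes named, 4 were still among the closest 3 over the 15 DMSO libraries and 14 over the 12 mutant lines. Over all 30, r ran from 0.22 (UHRF2) to 0.89 in the DMSO libraries and from 0.79 to 0.95 in the mutant lines.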

How the data were processed

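Polyadenylated RNA of 30 cultures was sequenced with a CORALL total RNA kit, per the labels' protocols. UMI-tools, STAR and SAMtools 1.10 with the hg38 build are named in the submitters' processing notes. The authors deposited 1 table of estimated counts for 61487 genes, not normalized, and 65.5% of its nonzero entries hold a decimal part. The counting program, its annotation and its use of strand are not given in sources used here. Names matched 61369 identifiers, and coordinates are those of GENCODE release 29 (58312 matched).

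Values were rounded and tested with edgeR 4.0.16 (R 4.3.3) in the 15 PB libraries: filterByExpr, TMM and 1 quasi-likelihood fit of 5 groups with 5 contrasts. Calls were made below an adjusted p of 0.05. The DMSO fit (29091 genes) is a description. Standard errors are approximate, being the log2 fold change over the root of F. CPM use TMM over all 30 libraries, and log2 CPM add a prior count of 2. DESeq2 1.42.0, other scalings, filters, sample sets and each library left out were alternatives. Of these, the fit of all 30 libraries takes its spread from the DMSO libraries too, which chose the genes. The fit was tested on simulated counts. All 10 genes are named. From each list up to 4 called genes, otherwise the most abundant, are named. Other named relatives and neighbours (EFNB1, GATA2, ATXN7L3, PCDH9, DSP and DSG2 among them) were chosen after their values were seen. The 10 genes, the lists and the tests were chosen with earlier results of these data known.

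Same-numbered PB and DMSO libraries of a mutant are the same line per the labels. Deviations from the group means correlated at 0.212 to 0.837 between same-numbered libraries, control included. Between same-numbered PB libraries of PHF5A 2xTL and control the correlations were 0.175, 0.222 and 0.258, and of the SUGP1 alleles 0.489, 0.190 and 0.393, so the numbers were read as pairing these libraries (every correlation over 0.1), although the labels give no shared batch. All tests given are without a block, and the fit with replicate number as a block is an alternative. In the other comparisons not every pair passed 0.1.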

Additional observations from a re-analysis of the deposited data

Results flagged for a closer look

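For 3 of the 10 genes, every line of 1 genotype moved one way from DMSO to PB and every line of another moved the opposite way. This held in 7 of 100 pairs of genotypes looked at, and the differences were not tested. The share of such pairs over all genes was not computed, so the count is not read as particular to these genes. FKBP3 was higher with PB in all SUGP1 E554K lines (mean 0.25 on the log2 CPM scale) and lower in all PHF5A 2xTL lines (-0.064). DSC2 was higher with PB in all PHF5A 2xTL lines (0.14) and lower in all SUGP1 E554K (-0.37) and SUGP1 G603N lines (-0.28). GATA3 was higher in all PHF5A 2xTL lines (0.16) and control cultures (0.13) and lower in all SF3B1 T1080I (-0.086) and SUGP1 G603N lines (-0.11). Most of these means are smaller than 0.3.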

How the results depend on the processing

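No result of the 10 genes reversed among called values. With PB, the count of genes called in PHF5A 2xTL was 1617 with DESeq2, 1887 with the groups compared alone and 192 to 714 with 1 library left out. In SF3B1 T1080I it was 2380, 3136 and 338 to 858. The count was more than 1.5 times smaller in PHF5A 2xTL without line 2 (202), line 3 (239) or control PB library 1 (199), 2 (210) or 3 (192), and in SF3B1 T1080I without line 1 (686), line 2 (417) or control PB library 1 (483), 2 (500) or 3 (338). In SUGP1 E554K it was 1 with all 30 libraries in 1 fit, 7 with DESeq2, 130 with no low-count filter, 5 with the groups compared alone and 0 to 0 with 1 library left out. In SUGP1 G603N it was 2 with all 30 libraries, 36 with DESeq2, 112 with no filter and 0 to 5 with 1 library left out, and between the alleles 1, 4, 75 and 0 to 1. Of the 10 genes, PHF5A 2xTL called 2 to 4 with 1 library left out. SF3B1 T1080I called 5 with DESeq2 and 5 with the groups compared alone (ANKS6 and NSMAF added) and 2 to 4 with 1 library left out. SUGP1 E554K called 1 with all 30 libraries, 2 with DESeq2, 3 with no filter, 1 with the groups compared alone and 0 to 0 with 1 library left out. SUGP1 G603N called 1 (GATA3) with all 30 libraries, with DESeq2 and with no filter, and the alleles 1, 1 and 2, both with 0 to 0 with 1 library left out. The causes were not tested.

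With replicate number as a block, 771 genes were called in PHF5A 2xTL, 1301 in SF3B1 T1080I and 0 in each SUGP1 comparison (G603N from 1 to 0), and 4, 3, 0, 0 and 0 of the 10 genes. The block changed no call of the 10 genes. In the DMSO fit 0 genes passed in each comparison. At unadjusted p under 0.05, 1219 genes passed in PHF5A 2xTL, 973 in SF3B1 T1080I, 960 in SUGP1 E554K, 1251 in SUGP1 G603N and 1010 between the alleles, and DESeq2 called 30, 31, 2, 6 and 0. Over the alternatives, 14 of 50 PB fold changes of the 10 genes changed sign, none of them called and each at most 0.29 on the log2 scale. Depth limits PCDH17 (19 to 266 counts) and MDFIC (34 to 754) most.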
